A study of Mus musculus with 8 samples.

Results

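Cdx2, Elf5, Gata2, Gata3, Tfap2a, Hand1 and Plac1 are mouse genes used as regulators and markers of the trophectoderm and its trophoblast descendants. The 7 genes were chosen by name, and every probe other than a control probe whose accession belongs to one of them was taken, which gave 8 probes (2 for Tfap2a) out of 39429 probes for 32530 genes on the array. Total RNA was measured from R1 mouse embryonic stem cells, an established line, left for 48 h to form embryoid bodies and collected 48 h after transfection with siRNA. The groups were a control siRNA (Control, 3 arrays) and a pair of siRNAs to CnAb1, a splice variant of the calcineurin catalytic subunit gene Ppp3cb, called siRNA 1 (3 arrays) and siRNA 2 (2 arrays). All groups share the cell line, the transfection and the differentiation.

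The trophectoderm is the outer epithelium of the blastocyst and gives rise to the placental trophoblast. In the mouse blastocyst, Tead4 with its coactivator Yap1 switches on Cdx2 and Gata3 in outer cells, while Pou5f1 holds Cdx2 down in the pluripotent cells from which embryonic stem cells are derived. Elf5 keeps trophoblast stem cells in their state, AP-2 and GATA factors act in trophoblast, Hand1 drives giant cell formation and Plac1 is a placental protein. Several of these genes are also used elsewhere: Cdx2 in the posterior embryo, Gata2 in blood progenitors, Hand1 in extraembryonic and lateral mesoderm, and Tfap2a in surface ectoderm and neural crest. A signal of one gene therefore does not name a cell type, and in RNA of whole embryoid bodies fewer cells of a type and less RNA per cell cannot be told apart.

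RefSeq promoter windows (assembly GRCm38.p6) were found for 6 of the 7 genes, and the 250 bases before the start are shown for Cdx2, Gata2 and Gata3. These genes were picked with their values known. Cdx2 had the largest fitted difference between the siRNAs among the tested members, and Gata2 and Gata3 varied together over the arrays. Capitals mark the AP-2 letters GCCNNNGGC, the GATA letters AGATAA, the TEAD letters GGAATG or the CDX letters TTTATG, searched on both strands. GCCNNNGGC reads the same on both strands. Gata2 has 2 starts in the table. The windows lie at chr5:147307250-147307499 (Cdx2, minus strand), chr6:88193641-88193890 and chr6:88198414-88198663 (Gata2, plus strand) and chr2:9878601-9878850 (Gata3, minus strand).
Cdx2: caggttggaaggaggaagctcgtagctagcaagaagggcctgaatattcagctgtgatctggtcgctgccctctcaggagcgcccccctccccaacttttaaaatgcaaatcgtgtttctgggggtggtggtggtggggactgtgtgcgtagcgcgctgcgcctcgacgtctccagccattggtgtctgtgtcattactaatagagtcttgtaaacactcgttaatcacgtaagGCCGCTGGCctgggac
Gata2, first start: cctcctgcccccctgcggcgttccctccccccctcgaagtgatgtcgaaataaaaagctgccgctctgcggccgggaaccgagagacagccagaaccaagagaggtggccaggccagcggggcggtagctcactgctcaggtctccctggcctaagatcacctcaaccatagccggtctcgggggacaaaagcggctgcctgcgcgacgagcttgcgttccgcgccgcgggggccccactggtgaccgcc
Gata2, second start: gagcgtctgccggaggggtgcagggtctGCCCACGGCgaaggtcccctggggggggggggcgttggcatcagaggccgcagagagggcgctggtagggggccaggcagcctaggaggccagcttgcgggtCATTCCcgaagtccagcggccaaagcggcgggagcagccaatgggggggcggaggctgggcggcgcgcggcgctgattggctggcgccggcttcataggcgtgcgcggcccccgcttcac
Gata3: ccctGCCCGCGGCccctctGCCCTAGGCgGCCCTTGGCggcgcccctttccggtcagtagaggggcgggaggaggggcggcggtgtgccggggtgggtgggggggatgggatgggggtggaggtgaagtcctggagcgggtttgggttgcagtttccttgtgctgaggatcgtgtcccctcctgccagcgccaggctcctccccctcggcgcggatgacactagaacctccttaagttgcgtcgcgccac

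The AP-2 letters occur 3 times in the Gata3 window, 1 time in the Cdx2 window and 1 time at the second Gata2 start, against 13.7% of all 32851 RefSeq promoter windows of this length that hold them at least 1 time. The TEAD letters occur 1 time, at the second Gata2 start, and are in 12.6% of all windows. The GATA letters (9.99% of all windows) and the CDX letters (10.8%) are in none of the 4 windows shown. These are matches of letters in a short window and do not show binding. Of the windows not shown, 1 of Plac1 holds the GATA letters, 1 of Elf5 the TEAD letters, and 1 each of Elf5 and Tfap2a the CDX letters. None of the windows not shown holds the AP-2 letters. GC content was 55.2% for Cdx2, 67.2% and 74.0% for Gata2 and 70.0% for Gata3, against a median of 52.4% over all windows. The fixed AP-2 letters are all G or C, and the 13.7% was not matched for GC content.

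Each array was scaled to its own 75th percentile of processed signal, so a value is a log2 signal relative to that percentile, and values of different probes are not set against each other. Between 68.0% and 75.1% of spots were well above background, and 0 were saturated. The 8 arrays lay on 3 slides: slide 1 with Control replicate 1, siRNA 1 replicate 1 and siRNA 2 replicate 1; slide 2 with Control replicate 2 and siRNA 1 replicate 3; slide 3 with Control replicate 3, siRNA 1 replicate 2 and siRNA 2 replicate 2. The first principal component held 42.3% of the variance and set the arrays of slide 1 (-34.6 to -32.1) apart from the others (13.3 to 26.2), so values within slides are given beside the pooled ones for the members, the related lists and the genes singled out from them. On every slide Control sat at position 1, siRNA 1 at position 2 and, where present, siRNA 2 at position 3, so position and group cannot be told apart. The single Ppp3cb probe read 0.63 ± 0.11 in Control (SD, n = 3), 0.39 ± 0.21 in siRNA 1 (n = 3) and 0.52 ± 0.14 in siRNA 2 (n = 2), and did not pass the test (limma adjusted p = 0.999945). Within slides siRNA 1 lay -0.56, 0.09 and -0.24 and siRNA 2 -0.33 and 0.00 from Control. Whether it reads the CnAb1 variant is not given in the sources used here, so it does not check the knockdown. The labels do not state whether replicates came from different cultures. The p-values therefore cover the spread between these arrays, which may be technical, and precision is limited by how few there are. The main limma fit has no slide term, so its spread also holds differences between slides. With the slide as a block, limma called 0 of 22422 genes for both siRNAs against Control, with 986 at an unadjusted p under 0.05.

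None of the 7 genes passed the test in any comparison. In limma, 0 of 22422 genes (0%) had an adjusted p under 0.05 for both siRNAs against Control, for siRNA 1 against Control, for siRNA 2 against Control or for siRNA 2 against siRNA 1, with 804, 785, 751 and 754 genes at an unadjusted p under 0.05 (3.59%, 3.5%, 3.35% and 3.36%). Of the 7 members, 5 were well above background on all 8 arrays and were tested (Cdx2, Gata2, Gata3, Tfap2a and Hand1), with adjusted p between 0.99984 and 0.999964. Elf5 and Plac1 were not well above background on every array of any group and were not tested across genes. Among the 5, only Cdx2 in siRNA 2 against siRNA 1 had an unadjusted limma p under 0.05.

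**Figure D1:**
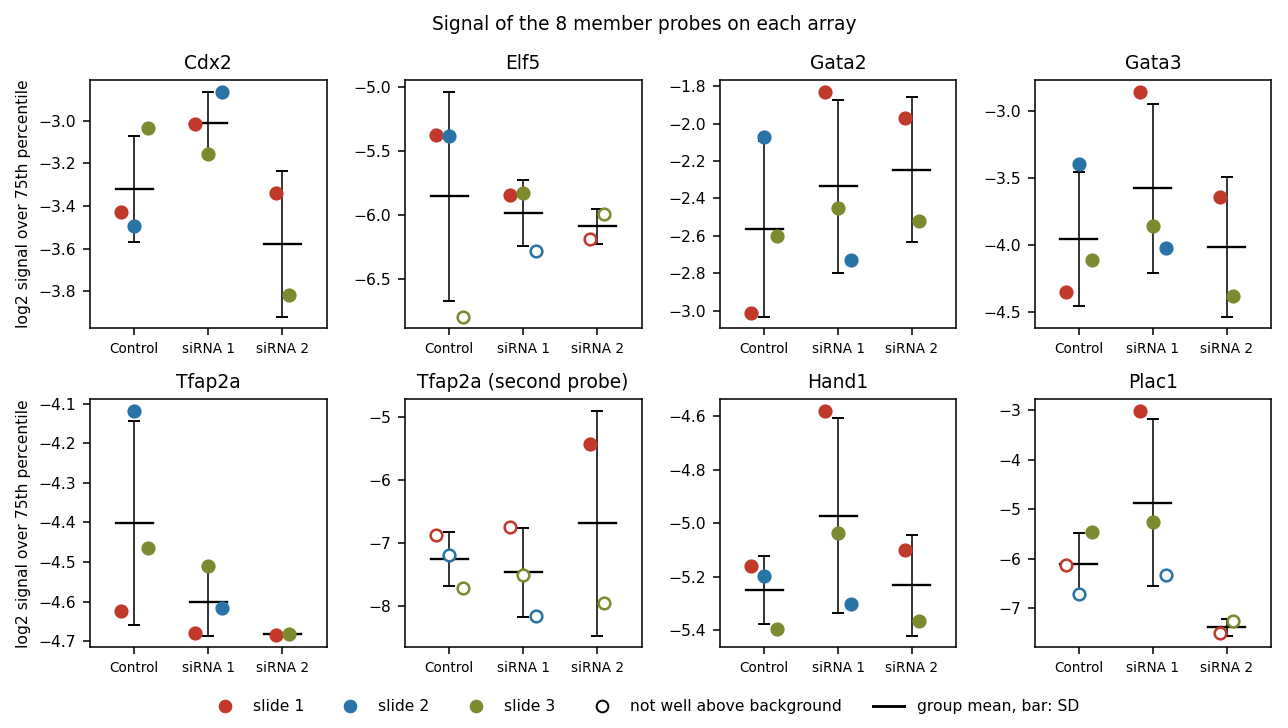
Log2 signal over the 75th percentile of the array (y axis) for the 8 probes in Control, siRNA 1 and siRNA 2. Points are arrays coloured by slide, open where the probe was not well above background, and lines are group means with SD bars. For Plac1, siRNA 1 replicate 1 at -3.01 stands apart from 7 arrays at or below -5.26.

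Cdx2, the caudal homeobox factor of trophectoderm and posterior embryo, had the largest fitted difference between the siRNAs among the 5 tested members. It read -3.43, -3.49 and -3.04 in Control, -3.01, -3.15 and -2.86 in siRNA 1 and -3.34 and -3.82 in siRNA 2 (probe A_52_P177490, NM_007673, chromosome 5). Both siRNA 2 arrays were below all 3 siRNA 1 arrays, while each siRNA group overlapped Control. The means were -3.32 ± 0.25 (SD, n = 3), -3.01 ± 0.15 (n = 3) and -3.58 ± 0.34 (n = 2). The fitted difference of siRNA 2 from siRNA 1 was -0.57 (SE 0.20, 95% interval -1.03 to -0.10, limma adjusted p = 0.999964). An exact two-sided permutation test gave p = 0.1, the smallest that 3 against 2 arrays allow, beside an unadjusted limma p = 0.0231. The difference thus did not pass the test over all genes. Its size rested on 1 array and on the background correction, at -0.33 without siRNA 2 replicate 2 and -0.23 with normexp. Against Control, siRNA 1 stood 0.31 higher (SE 0.18, interval -0.11 to 0.72) and siRNA 2 stood at -0.26 (SE 0.20, interval -0.72 to 0.20), with exact p = 0.2 and 0.6. The mean of both siRNAs was 0.02 from Control (SE 0.16, interval -0.35 to 0.40). The exact test of both siRNAs pools their 5 arrays, here at 0.08 from Control, and gave p = 0.75. All 3 intervals against Control span 0. Within slides, siRNA 2 lay -0.32 from siRNA 1 on slide 1 and -0.66 on slide 3, the same side both times. The siRNA 1 difference from Control was 0.42 on slide 1, 0.63 on slide 2 and -0.12 on slide 3, and that of siRNA 2 was 0.09 on slide 1 and -0.78 on slide 3. Neither siRNA kept 1 sign against Control over the slides, and on both slides with all groups the siRNAs lay on the same side of Control.

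Gata2 and Gata3 encode zinc finger factors of trophoblast, and Gata3 is induced by Tead4 in the trophectoderm. Gata2 read -3.01, -2.07 and -2.60 in Control, -1.83, -2.45 and -2.73 in siRNA 1 and -1.97 and -2.52 in siRNA 2 (A_52_P233441, NM_008090, chromosome 6). Gata3 read -4.35, -3.39 and -4.11 in Control, -2.85, -3.86 and -4.02 in siRNA 1 and -3.64 and -4.38 in siRNA 2 (A_66_P111011, NM_008091, chromosome 2). All groups overlapped for both genes. Gata2 means were -2.56 ± 0.47 (SD, n = 3), -2.34 ± 0.46 (n = 3) and -2.25 ± 0.39 (n = 2), and Gata3 means -3.95 ± 0.50, -3.58 ± 0.63 and -4.01 ± 0.52. The fitted differences of both siRNAs from Control were 0.27 for Gata2 (SE 0.28, interval -0.40 to 0.94, exact p = 0.429) and 0.16 for Gata3 (SE 0.35, interval -0.67 to 0.99, exact p = 0.661). These differences are within the spread between arrays. Taken singly, siRNA 1 stood 0.23 (SE 0.32) and siRNA 2 0.32 (SE 0.35, interval -0.52 to 1.15) from Control for Gata2. For Gata3 they stood 0.38 (SE 0.39, interval -0.54 to 1.295) and -0.06 (SE 0.44, interval -1.09 to 0.97).

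For these GATA factors the sign of the mean difference of both siRNAs rested on slide 1. On slide 1, siRNA 1 exceeded Control by 1.18 for Gata2 and 1.498 for Gata3, and siRNA 2 exceeded it by 1.04 and 0.71. On slide 2 siRNA 1 lay -0.66 (Gata2) and -0.63 (Gata3) from Control, and on slide 3 siRNA 1 lay 0.15 and 0.26, siRNA 2 0.08 and -0.27, from Control. Without slide 1, the difference of both siRNAs was -0.22 for Gata2 and -0.41 for Gata3.

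Tfap2a, an AP-2 factor of trophoblast and ectoderm, stood lower in all 5 siRNA arrays than the Control mean. Its brighter probe read -4.62, -4.12 and -4.46 in Control, -4.68, -4.51 and -4.62 in siRNA 1 and -4.68 and -4.68 in siRNA 2 (A_55_P1964812, NM_001122948, chromosome 13). Both siRNA 2 arrays lay below all Control and siRNA 1 arrays, though siRNA 1 replicate 1 read the same to the printed decimals, and siRNA 1 overlapped Control. Of the 5 tested members, 0 stood apart from Control without overlap in both siRNAs (all tested genes: 2.43% higher, 1.01% lower) or in siRNA 1 (5.4% and 2.5%). In turn, 1 (Tfap2a) lay below Control without overlap in siRNA 2, where 8.19% of all tested genes did, and 8.75% lay above. Cdx2 and Tfap2a, 2 of 5, lay below siRNA 1 without overlap in siRNA 2, where 11.9% of all genes did and 7.27% lay above. The fitted difference of both siRNAs was -0.24 (SE 0.12, interval -0.53 to 0.05, limma adjusted p = 0.999945), with exact p = 0.0536 over all 56 splits. It was -0.20 for siRNA 1 (SE 0.14) and -0.28 for siRNA 2 (SE 0.15, interval -0.64 to 0.08), and no interval excludes 0. The value rested on Control replicate 2 and on the probe and background correction: it was -0.10 without that array, -0.03 with the mean of both probes, -0.06 with normexp and -0.10 with no background correction. Permuting Control only within slides gave an exact p = 0.0556, the smallest that its 18 placements allow. Every array pair on a slide lay on the lower side, at -0.06, -0.50 and -0.05 for siRNA 1 and -0.06 and -0.22 for siRNA 2. The second probe (A_55_P2199463, NM_011547) was well above background on 1 array, siRNA 2 replicate 1, at -5.42, and between -8.16 and -6.74 on the others, so no fold is given for it.

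Hand1, a basic helix-loop-helix factor of giant cells and mesoderm, read -5.16, -5.20 and -5.40 in Control, -4.58, -5.04 and -5.30 in siRNA 1 and -5.10 and -5.37 in siRNA 2 (A_51_P342549, NM_008213, chromosome 11). The groups overlapped, with means of -5.25 ± 0.13 (SD, n = 3), -4.97 ± 0.36 (n = 3) and -5.23 ± 0.19 (n = 2). The fitted difference of both siRNAs from Control was 0.15 (SE 0.17, interval -0.25 to 0.55, exact p = 0.464), with 0.28 for siRNA 1 (SE 0.19, interval -0.17 to 0.72) and 0.02 for siRNA 2 (SE 0.21). Within slides siRNA 1 was 0.58, -0.10 and 0.36 from Control on slides 1, 2 and 3, and siRNA 2 was 0.06 and 0.03.

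**Figure D2:**
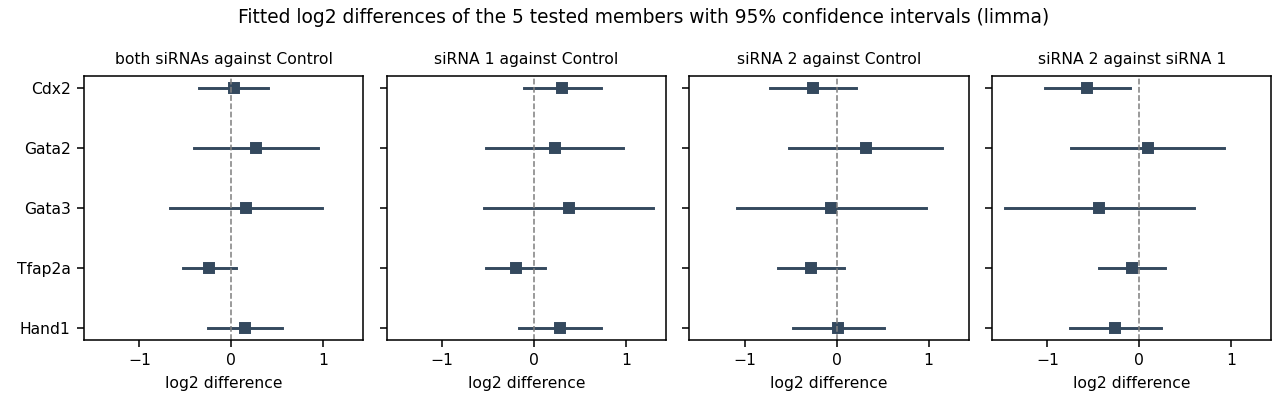
Fitted log2 difference (x axis) of the 5 tested genes in 4 comparisons, with 95% confidence intervals from limma. Only the interval of Cdx2 in siRNA 2 against siRNA 1, -1.03 to -0.10, does not reach 0.

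Elf5, an ETS factor that keeps trophoblast stem cells undifferentiated, was near background. It read -5.38, -5.38 and -6.79 in Control, -5.85, -5.83 and -6.28 in siRNA 1 and -6.19 and -5.99 in siRNA 2, and was well above background on 2 of 3, 2 of 3 and 0 of 2 arrays (A_51_P455866, NM_010125, chromosome 2). The processed intensities ran from 9.29 to 22.3. The siRNA 2 mean lay -0.24 from Control (exact permutation p = 0.9), and the direction was not kept: the difference was 0.00 without Control replicate 1 and 0.10 without slide 1. No fold is given for Elf5. Within slides its sign was not steady, at -0.47, -0.90 and 0.96 for siRNA 1 on slides 1, 2 and 3 and -0.81 and 0.80 for siRNA 2 on slides 1 and 3.

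Plac1, a placental gene on chromosome X, had the widest spread. It read -6.13, -6.71 and -5.47 in Control, -3.01, -5.26 and -6.32 in siRNA 1 and -7.51 and -7.26 in siRNA 2 (A_55_P1962279, NM_019538), and was well above background on 1 of 3, 2 of 3 and 0 of 2 arrays. Both siRNA 2 arrays were below every other array, and siRNA 1 replicate 1, with a processed intensity of 107.1, was above every other array. The siRNA 2 mean lay -1.28 from Control and -2.52 from siRNA 1, with exact permutation p = 0.2 for each, and -1.59 from siRNA 1 without siRNA 1 replicate 1. The difference of siRNA 1 from Control was 1.24 over all slides, but 3.13 on slide 1, 0.39 on slide 2 and 0.21 on slide 3, and 0.30 without slide 1 (exact p = 0.3 over all slides). On slides 1 and 3 siRNA 2 was -1.38 and -1.79 from Control. At these low signals the size depends on the background correction: siRNA 2 stood at -0.14 from Control and -0.48 from siRNA 1 with normexp, and at -0.24 and -0.76 with no background correction. No fold is given for Plac1, since siRNA 2 was not well above background and the size was not steady.

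**Figure D3:**
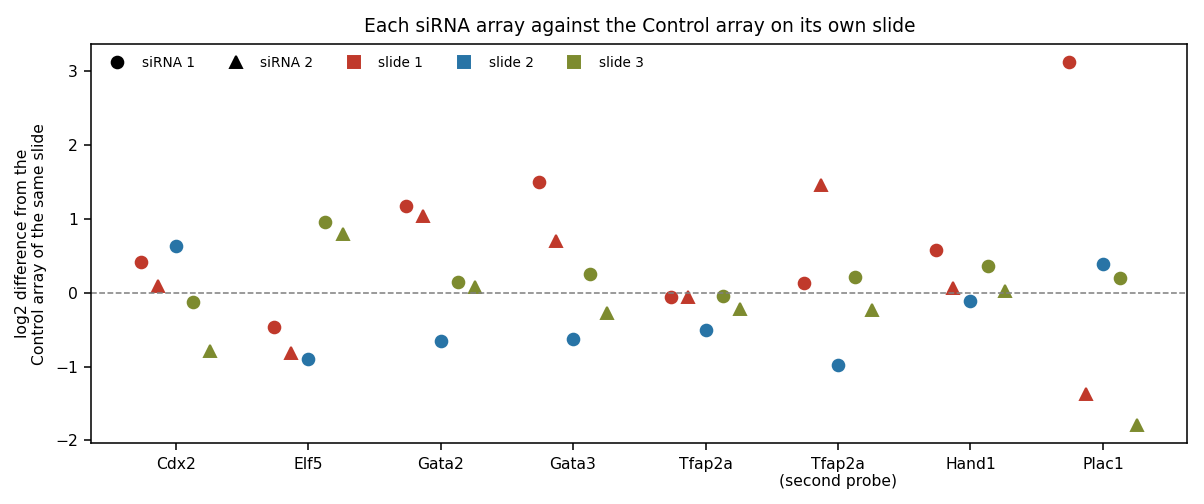
Log2 difference of each siRNA array from the Control array on its own slide (y axis) for the 8 probes, with circles for siRNA 1, triangles for siRNA 2 and a colour per slide. Gata2 and Gata3 are above 0 on slide 1 (0.71 to 1.498) and lie on both sides of 0 elsewhere.

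1 array, siRNA 1 replicate 1, was the highest of 8 for Gata2, Gata3 and Hand1, 3 of the 5 tested members. Of all tested genes 16.4% were highest on it and 17.0% lowest. It was the highest for untested Plac1 as well. It was also highest for 7 of 15 other trophoblast regulators and for 4 of 8 pluripotency markers (Esrrb is in both lists). The summed level of the pluripotency markers on it was 244 against 190 to 226 on the other arrays. That sum rests mostly on the bright probe of Dppa5a, at 7.28 on this array. The list did not move as 1: Utf1 was the lowest of 8 on it, Pou5f1 and Nanog ranked 3 and Tdgf1 ranked 4. The array was further highest for 6 of 17 trophoblast epithelial and differentiation genes and for 3 of 6 fibroblast feeder markers, whose summed level on it was 4.21 against 3.39 to 4.13 on the others. In the remaining related lists it was highest for 0 of 6 GATA family, 1 of 3 AP-2, 2 of 5 caudal and Hand and 2 of 5 ETS genes. Among markers of other cells it was highest for 0 of 8 endoderm, 1 of 6 blood and endothelial, 1 of 8 surface ectoderm and 2 of 8 mesoderm genes. The part of pluripotent, feeder or other cells in the members' values was not tested. The part of this array in the members' values was measured by leaving it out. Gata3 in both siRNAs against Control was then -0.02, against 0.16 with it, and Gata2 in siRNA 1 against Control -0.03, against 0.23. Some other differences from Control shrank but kept their sign without it, such as Gata3 in siRNA 1 at 0.015, against 0.38, and Hand1 in siRNA 1 at 0.08, against 0.28. For untested Plac1 the difference of both siRNAs instead grew without it, to -0.48 against -0.018. Gata2 in both siRNAs stayed above 0 whichever array was left out (0.046 to 0.515). Across the 8 arrays Gata2 and Gata3 varied together (Pearson r 0.87, Spearman rho 0.81), with r of 0.83 without that array. Gata3 and Hand1 had r of 0.81, and 0.47 without it. The arrays share slides, so these correlations describe the arrays and carry no p.

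**Figure D4:**
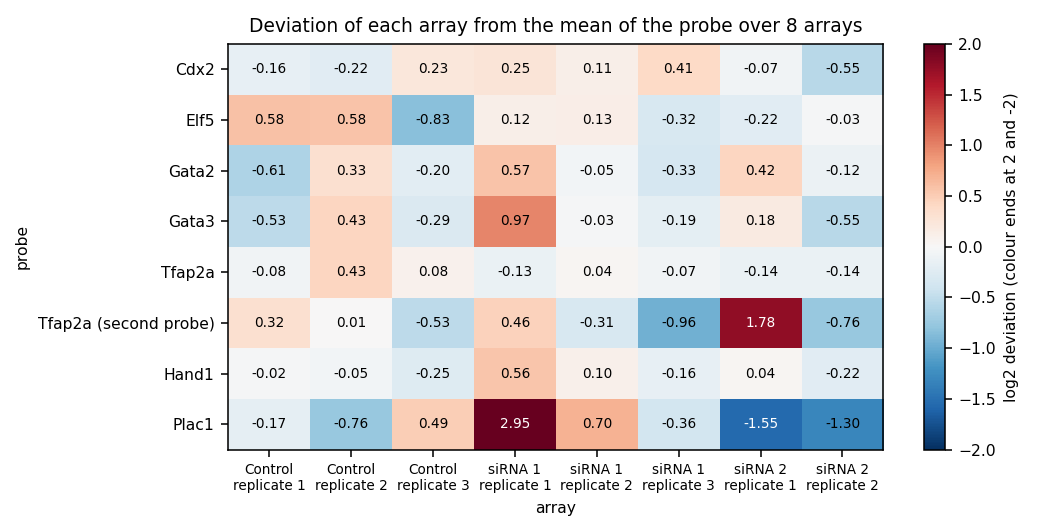
Deviation (log2) of each array, in columns, from the mean of the probe over 8 arrays, for the 8 probes in rows. The array siRNA 1 replicate 1 stands high for Gata2 (0.57), Gata3, Hand1 and Plac1.

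Of 14886 named genes searched, the 2 most similar by Pearson r over 8 arrays were Ccdc25 (0.97) and Cks1brt (0.94) for Cdx2, Adat3 (0.99) and Tubb2a (0.99) for Gata2, and Gask1b (0.99) and Nfkbia (0.99) for Gata3. For Tfap2a they were Vipr1 (0.95) and Zfp523 (0.94, but 0.50 without the 2 arrays farthest from the median), and for Hand1 Rabac1 (0.97) and Mxd4 (0.96). These values describe likeness over arrays that share slides.

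Over the 5 tested members, the median difference of both siRNAs from Control was 0.15, with 4 higher and 1 lower, beside 0.0072 and 52.9% higher over all genes. It was 0.28 for siRNA 1 (4 higher, 1 lower, beside 0.024 and 58.2%) and -0.06 for siRNA 2 (2 higher, 3 lower, beside 0.00 and 49.8%). Between the siRNAs it was -0.26, with 1 higher and 4 lower, beside -0.03 and 42.4%. Within slides the members' median difference from Control was 0.58, -0.50 and 0.15 for siRNA 1 on slides 1, 2 and 3 and 0.09 and -0.22 for siRNA 2 on slides 1 and 3, so neither kept 1 sign. The comparisons with Control share its 3 arrays.

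Other genes of the trophoblast network were read from lists. Of 15 other trophoblast regulators, all well above background on 8 arrays, 11 stood higher and 4 lower in both siRNAs than in Control, with a median of 0.10 and 0 past the test. Tead4, which switches on Cdx2 in outer cells, stood at -0.26 (SE 0.24), Tfap2c, an AP-2 factor of trophoblast stem cells, at 0.36 (SE 0.28) and Eomes, a T-box factor of trophoblast and primitive streak, at -0.62 (SE 0.18, limma adjusted p of at least 0.99984). Eomes was 1.67, 1.27 and 1.57 in Control, 0.64, 1.23 and 1.31 in siRNA 1 and 0.68 and 0.75 in siRNA 2, so both siRNA 2 arrays lay below Control. A second Eomes probe gave -0.77. Within slides Eomes lay -1.03, 0.04 and -0.34 from Control in siRNA 1 and -0.99 and -0.83 in siRNA 2. The median of the 15 regulators was 0.55 on slide 1, -0.27 on slide 2 and 0.04 on slide 3 for siRNA 1, and 0.32 and 0.13 for siRNA 2, so it lay below Control on slide 2.

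Of 21 genes of trophoblast epithelium and differentiation, 17 were tested, of which 10 stood higher and 7 lower (median 0.11) with 0 past the test. The epithelial keratins Krt8 and Krt18 stood at -0.07 (SE 0.13) and -0.10 (SE 0.10), and Krt7 at 0.41 (SE 0.17). The placental genes Ctsq and Psg17 were well above background on 0 arrays, and Tpbpa on 4. In the GATA family 3 of 6 stood higher and 3 lower (median 0.04): Gata1 of red cells at 0.14 (SE 0.16), and the endoderm and heart factors Gata4 at -0.50 (SE 0.22) and Gata6 at -0.80 (SE 0.36), which were at -0.73 and -1.21 in siRNA 2. Within slides siRNA 2 lay -0.45 and -1.004 from Control for Gata4 and -0.42 and -2.07 for Gata6, on slides 1 and 3. In siRNA 1 Gata4 lay -0.16, -0.44 and -0.22 from Control, and Gata6 0.35, -0.85 and -0.66. For siRNA 1 the median of the epithelial and differentiation list was 0.23, -0.31 and 0.06 and that of the GATA family 0.35, -0.03 and 0.20, and for siRNA 2 they were 0.21 and 0.07, and -0.18 and -0.19.

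In the AP-2 family Tfap2b was well above background on 0 arrays and Tfap2d stood at -0.42 (SE 0.29), with 2 of 3 tested genes higher. Of the caudal and Hand relatives, Cdx4 was well above background on 0 arrays, Cdx1 stood at 0.03 (SE 0.13) and Hand2 at -0.03 (SE 0.11), with 2 of 5 higher. Of the ETS relatives of Elf5, Elf1, Elf2 and Elf3 stood at 0.09 (SE 0.32), -0.10 (SE 0.08) and 0.14 (SE 0.12), with 2 of 5 higher. Within slides the list medians ran from -0.34 to 0.19 for the AP-2 family, from -0.20 to 0.23 for the caudal and Hand relatives and from -0.38 to 0.07 for the ETS relatives, so none kept 1 sign. No gene of these lists passed the test.

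**Figure D5:**
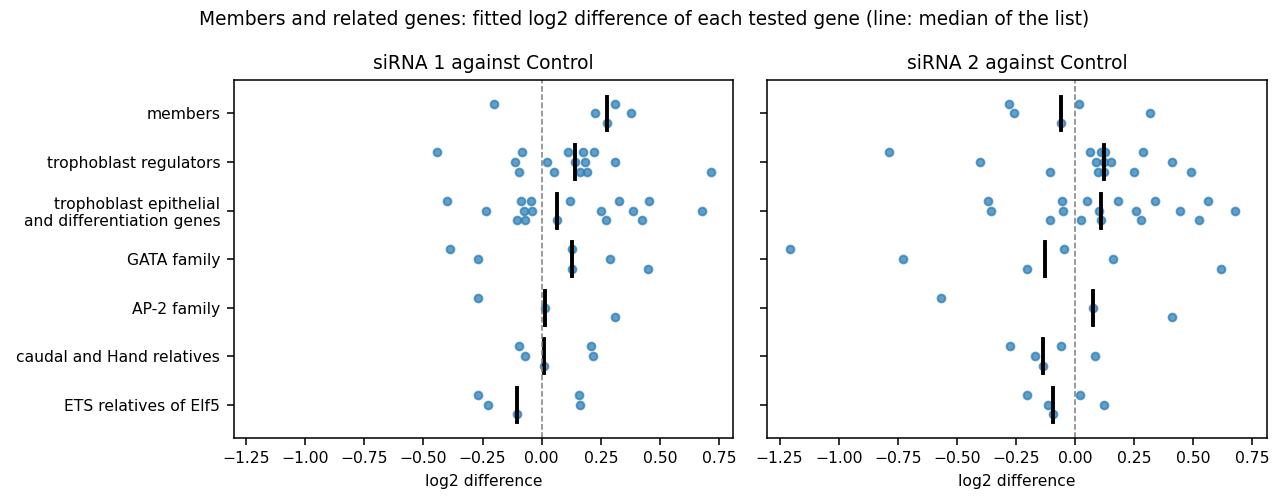
Fitted log2 difference from Control (x axis) of each tested gene in the members and 6 related lists, for siRNA 1 and siRNA 2, with a line at the median of each list. In siRNA 2, the GATA family has the lowest gene, Gata6 at -1.21.

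Markers of other cells that the bodies could hold were read the same way. The 8 pluripotency markers were well above background on all arrays, with a summed level (signal over the 75th percentile) of 190 to 214 in Control, 202 to 244 in siRNA 1 and 218 to 226 in siRNA 2. The primitive and visceral endoderm list summed to 4.63 to 9.59 in Control, 5.004 to 8.30 in siRNA 1 and 3.01 to 3.09 in siRNA 2, with all 8 genes lower in siRNA 2 than in Control by group means. Within slides 7 of 8 were lower on slide 1 (median -0.45) and 8 of 8 on slide 3 (median -2.02). The siRNA 2 arrays, which were the lowest for Plac1 and, by less than the printed decimals, for Tfap2a, also had the lowest endoderm sum. The part of endoderm in the values of these members was not tested. The same arrays were the lowest for Gata6, but Gata6 is in the endoderm list and so is part of that sum. The blood and endothelial list summed to 1.95 to 2.85 in Control, 2.16 to 2.57 in siRNA 1 and 2.48 to 2.85 in siRNA 2, and the surface ectoderm and neural crest list to 8.40 to 9.65, 9.42 to 10.2 and 8.96 to 10.1, so the groups overlapped for both. The mesoderm list summed to 6.67 to 9.32, 7.81 to 8.90 and 6.84 to 7.71, a sum that rests mostly on the bright probe of Kdr. Of the 8 tested mesoderm genes, 2 were higher and 6 lower in siRNA 2 than in Control (median -0.146). Against siRNA 1, 8 of 8 were lower in siRNA 2 (median -0.205), where 42.4% of all tested genes were higher (median -0.026). This was not particular to mesoderm: 8 of 8 endoderm, 7 of 8 pluripotency and 5 of 8 surface ectoderm genes were also lower. Of the blood and endothelial genes 1 of 6 was lower, and of the feeder genes 2 of 6. Within slides, 4 of 8 mesoderm genes were lower in siRNA 2 than in Control on slide 1 (median -0.027) and 5 of 8 on slide 3 (median -0.101). The part of mesoderm in the values of Cdx2 and Hand1 was not tested. The list of fibroblast feeder cells summed to 3.77 to 4.11, 3.39 to 4.21 and 4.01 to 4.13.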

How the data were processed

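The deposited scanner files hold the authors' Agilent Feature Extraction 10.7.3.1 output of 8 one-colour Cy3 arrays with 44397 spots each, per the file headers. The processed signal is an intensity corrected for background by the authors, per the file headers, not scaled between arrays. A deposited value table holds log2 values centred per probe, with column medians between -0.04 and 0.02, used as an alternative. Its columns named Control 2 and Control 3 follow each other's scanner file. RMA is named in the submitters' processing notes without saying for what.

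Control and outlier spots were dropped, spots of 1 probe were averaged, and accessions were matched without versions to a RefSeq table (GRCm38.p6), naming 26418 of 39429 probes. The design's build is mm9, and no probe coordinates are given. The values tested were log2 processed signals from which each array's 75th percentile was subtracted. A gene was represented by its probe with the highest mean and tested where some group had it well above background throughout (22422 genes, 15561 named). One limma 3.58.1 fit (lmFit, eBayes; R 4.3.3) over 3 groups had 5 residual and 2.09 prior degrees of freedom, with Benjamini-Hochberg adjustment at 0.05 over all tested genes. Single members had exact two-sided permutation tests. For both siRNAs against Control these pooled the 5 siRNA arrays, while the fit weighted siRNA 1 and siRNA 2 equally. The exact p therefore belongs to a somewhat different difference from the fitted one, such as 0.20 against 0.16 for Gata3. The fit was also run on simulated data. Those were drawn without differences between slides, so that run says nothing about the slide differences seen here.

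The files hold no mean spot signal, so normexp used the median. The members, lists and tests were chosen with earlier results of these data known. The text names all members, the first 3 measured genes of each related list, any list gene past the threshold, and the 2 likest genes of each member well above background on all arrays. Alternatives were other normalizations, background corrections, filters, probe rules, variance models, blocks and left-out arrays. Motifs were matched on both strands of the 250 bases before each start.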

Additional observations from a re-analysis of the deposited data

Results flagged for a closer look

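Cdx2 lay on opposite sides of the pooled Control mean with the 2 siRNAs, but not within slides. All 3 siRNA 1 arrays were above the Control mean and both siRNA 2 arrays below it, and siRNA 2 lay -0.57 from siRNA 1 (limma's test of that difference, unadjusted p = 0.0231, adjusted p = 0.999964, exact permutation p = 0.1). Against the Control array of the same slide, siRNA 1 and siRNA 2 were both higher on slide 1 (0.42 and 0.09) and both lower on slide 3 (-0.12 and -0.78). The difference between the siRNAs was -0.33 without siRNA 2 replicate 2 and -0.23 with normexp.

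The second Tfap2a probe (A_55_P2199463) was well above background only on siRNA 2 replicate 1, with a processed intensity of 21.5, and between 3.23 and 8.05 on the other 7 arrays.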

How the results depend on the processing

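Of 571 recomputed member differences, 51 turned sign and 0 passed the test. Of 87 recomputed counts of genes, 84 were 0. With array weights, limma called 9 genes for both siRNAs against Control (2659 at an unadjusted p under 0.05); with only the groups compared, 1 for siRNA 2 against siRNA 1 (857 unadjusted). Leaving out 1 array at a time gave 0 to 1 calls for siRNA 2 against Control, 1 without siRNA 2 replicate 2. The causes were not tested. Without slide 1, the difference of both siRNAs from Control turned to -0.15 for Cdx2, -0.22 for Gata2 and -0.41 for Gata3, that of siRNA 1 to -0.25 for Gata2 and -0.18 for Gata3, and that of siRNA 2 to -0.18 for Gata2 and -0.070 for Hand1. With array weights, Cdx2 in both siRNAs was -0.18 and Gata3 in siRNA 2 0.066. With normexp, Gata3 in siRNA 2 was 0.0079, and siRNA 2 minus siRNA 1 was 0.0090 for Tfap2a and 0.0087 for Hand1. Quantile normalization gave 0.045 for Tfap2a between the siRNAs, and the mean of its probes 0.35, and 0.15 in siRNA 2 against Control. With the slide as a block, Hand1 in siRNA 2 was -0.051. With the replicate block, Hand1 in siRNA 2 was -0.10 and Gata2 between the siRNAs -0.019, and 0 genes were called in each comparison. Correlations of deviations between arrays of the same number ran from -0.04 to 0.70, so the numbers were not taken as pairing the samples. Leaving out 1 array at a time, the ranges that crossed 0 were -0.10 to 0.17 (Cdx2, both siRNAs), -0.028 to 0.47 (Gata2, siRNA 1), -0.18 to 0.36 (Gata2, between siRNAs), -0.041 to 0.44 (Gata3, both siRNAs), -0.43 to 0.31 (Gata3, siRNA 2) and -0.115 to 0.15 (Hand1, siRNA 2); for untested Elf5 they were -0.66 to 0.05 (both siRNAs), -0.61 to 0.10 (siRNA 1) and -0.71 to 0.00046 (siRNA 2), and for untested Plac1 -0.48 to 0.35 (both siRNAs). Untested Plac1 between the siRNAs was -0.48 with normexp and -0.76 with no background correction, against -2.52.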

Other observations

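Of 49 related genes tested, 4 had all 5 siRNA arrays above all 3 Control arrays and 0 had all below, and they are named after their values were seen. Aqp3, a water and glycerol channel of epithelia, read -1.77 to -1.24 against -2.40 to -1.94 (difference 0.68, SE 0.18, limma adjusted p = 0.999945). Phlda2, an imprinted gene that restrains placental growth, read -0.36 to 0.05 against -0.75 to -0.42 (difference 0.45, SE 0.11, limma adjusted p = 0.972). Zfpm2, a GATA cofactor, read -4.51 to -3.96 against -4.75 to -4.64 (difference 0.53, SE 0.14, limma adjusted p = 0.999945). Sox15, a Sox factor of placenta, stood 0.24 higher (SE 0.09, limma adjusted p = 0.999945). None passed the test over all genes, and 2.43% of all tested genes lay above Control in this way. An exact permutation test gave p = 0.0179 for Aqp3 and 0.0357 for Phlda2 and for Zfpm2. Choosing genes whose groups do not overlap makes this p small in advance, so no conclusion is drawn from it. Within slides the differences from Control ran from 0.17 to 1.17 for Aqp3, 0.06 to 0.69 for Phlda2, 0.24 to 0.78 for Zfpm2 and 0.09 to 0.46 for Sox15 over the 5 siRNA arrays.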
